A study of Homo sapiens with 12 samples.

Results

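The 33 genes described here encode carriers of amino acids, most of them proteins of the plasma membrane. They were taken by name out of 57500 genes in the count tables. The list was chosen with earlier results of these data known, so its counts beside shares of all genes are descriptions and not tests. All 33 were found. Of these, 28 passed the filter on low counts in every comparison and could be tested. The other 5 (SLC3A1, SLC7A8, SLC1A1, SLC1A3 and SLC43A3) had between 0 and 5 counts in any library, and their changes were not detectable at this depth.

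Amino acids cross the plasma membrane on carriers that either concentrate them by coupling to sodium, chloride or protons, or swap one amino acid for another, or let them flow down their gradient. The accumulative carriers, such as the system A transporters of the SLC38 family, fill the cell with small neutral amino acids, and exchangers such as SLC1A5 and the SLC7A5-SLC3A2 dimer spend that pool to bring in glutamine, leucine and other essential amino acids. SLC7A11, the light chain of system xc-, trades intracellular glutamate for extracellular cystine, the precursor of the cysteine in glutathione. SLC6A9 and SLC6A14 are glycine carriers, glycine being the amino acid at the centre of the study. Many of these genes are known targets of the transcription factor ATF4, which is raised when amino acids are scarce. The collective name is not exact for every gene: SLC38A7 and SLC38A9 are known as lysosomal proteins, SLC36A1 is found on lysosomes as well as at the cell surface, and SLC43A3 carries purine nucleobases.

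The samples were HepG2 cells, a line from a human hepatocellular carcinoma, in 3 groups of 4 independent replicates. WT cells were the untransduced wild-type line, and no vector control is among these groups. shTST cells carried a plasmid for a short hairpin RNA against TST (thiosulfate sulfurtransferase, or rhodanese, the mitochondrial enzyme that turns cyanide into thiocyanate). overTST cells carried a codon-optimized TST coding sequence behind a CMV promoter in a lentiviral vector. According to the methods, transduced cells were selected with blasticidin S, so transduction and selection cannot be told apart from the altered TST in either comparison with WT. All 3 groups were kept for 24 h in normal medium, which holds 400 µM glycine. The comparisons ask how silencing or raising TST altered the expression of these carriers.

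The libraries held 28866175 to 45120508 counts (WT), 27527854 to 33865386 counts (shTST) and 22911380 to 27414142 counts (overTST). The share of counts on mitochondrially encoded genes was 6.91% to 11.98% in WT, 6.84% to 8.65% in shTST and 10.8% to 11.7% in overTST. TST itself had 1535, 2164, 1555 and 1581 counts in WT, 922, 1002, 1261 and 1009 in shTST, and 1389, 1323, 1561 and 1367 in overTST. Its log2 fold change was −0.52 with shTST (edgeR's quasi-likelihood test, adjusted p = 3.2e-06). With overTST it was 0.24 (adjusted p = 0.00384), and 0.097 (adjusted p = 0.201) after a correction for gene length described further on. The counts need not include the codon-optimized transgene, so they do not check the overexpression. Hepatocyte markers were abundant, with ALB at 5739 ± 555 CPM and APOB at 7832 ± 421 CPM in WT (SD, n = 4). The 10 hepatocyte markers summed to 21791 to 24465 CPM in WT, 22713 to 26255 in shTST and 19925 to 23632 in overTST. Of these 10, 4 were higher and 2 lower with shTST (AFP 0.49, FGB 0.44, ALB 0.39, APOC3 0.28, APOB −0.19 and TTR −0.33 on the log2 scale), and 3 were higher and 2 lower with overTST (APOC3 0.53, APOA1 0.24, TTR 0.16, HNF4A −0.15 and APOB −0.55). At the same threshold, an adjusted p of 0.05 or less, 6.69% of all genes were higher and 9.4% lower with shTST. With overTST these shares were 15.7% and 18.2%. The 10 markers of other cell types summed to 140.3 to 166 CPM in WT, 167 to 174 in shTST and 164 to 175 in overTST, nearly all of it the epithelial gene EPCAM and the actin gene ACTA2. PTPRC (leukocytes), COL1A2 (fibroblasts), KRT5, VWF and GFAP were at 0 to 0.219 CPM on average in every group and could not be tested, and COL1A1, CD68 and PECAM1 were at 0.926 to 3.28 CPM. Of the 5 tested, 1 was higher with shTST (EPCAM 0.24, edgeR adjusted p = 0.00497) and 2 with overTST (PECAM1 0.60, adjusted p = 0.00278, and ACTA2 0.16, adjusted p = 0.0455), beside 6.69% and 15.7% of all genes. The part of these markers in the levels of the carriers was not tested.

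The promoters of these genes were read for the core of the C/EBP-ATF response element, the sequence through which ATF4 acts, because it is the best known regulatory sequence shared by amino acid carriers. RefSeq windows on GRCh38.p14, from 250 bases before to 50 bases after a transcription start, were at hand for 26 of the 33 genes (47 windows). The letters TGATGNAA, on either strand, stood in windows of 6 of the 26 genes (23.1%), against 4.46% of the 27305 genes in the table. The carriers had more windows a gene than the 27305 genes, which had 35116, and per window the shares were 12.8% and 3.62%. A match is only a stretch of letters, and binding was not measured. The following stretches run 5′ to 3′ along the strand of each gene, with the match in capitals.
SLC1A5: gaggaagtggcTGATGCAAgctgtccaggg
SLC1A4: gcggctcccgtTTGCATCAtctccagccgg
SLC1A3: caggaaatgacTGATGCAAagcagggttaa
SLC38A1: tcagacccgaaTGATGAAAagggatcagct
SLC7A1: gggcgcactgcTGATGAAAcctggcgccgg
SLC3A2: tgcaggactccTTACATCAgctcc
The SLC1A5, SLC1A4 and SLC1A3 stretches hold the same core, TGATGCAA, which in SLC1A4 lies on the other strand as TTGCATCA. The SLC1A5 stretch is chr19:46784893-46784922 (minus strand), and its match begins 97 bases upstream of a RefSeq start that lies inside the gene. The SLC1A4 stretch (chr2:64989381-64989410, plus strand) and the SLC38A1 stretch (chr12:46266502-46266531, minus strand) span the start, their matches beginning 7 and 4 bases before it, and both starts lie inside the genes as well. The SLC1A3 match begins 220 bases upstream of a start (chr5:36596357-36596386, plus strand) that lies before the gene as annotated in the count tables. In SLC7A1 (chr13:29595663-29595692, minus strand) and SLC3A2 (chr11:62881725-62881748, plus strand) the match lies within the transcript and begins at its base 8 and base 38, and the SLC3A2 start is again inside the gene.

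The core of the antioxidant response element, bound by NRF2, was searched for in the same way as TGACNNNGC, and it stood in windows of 7 of the 26 genes (26.9%) against 16.1% of all genes in the table. Per window the shares were close, with 7 of 47 (14.9%) against 13.3%. These were SLC1A3, SLC1A5, SLC3A2, SLC7A1, SLC7A5, SLC7A6 and SLC7A7. The printed stretches were cut around the C/EBP-ATF core, and no antioxidant core overlapped it there. SLC1A3, SLC1A5, SLC3A2 and SLC7A1 held both cores, not necessarily in the same window. No window was at hand for SLC7A11, SLC7A2, SLC1A2, SLC38A3, SLC6A6, SLC3A1 or SLC43A3.

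Levels of different genes were compared per exonic length, as RPKM, which is CPM divided by the exonic length in kilobases. SLC7A5, or LAT1, the exchanger of large neutral amino acids, was the most expressed carrier in WT at 251 ± 10.1 RPKM (SD, n = 4) and made up 36.6% of the summed RPKM of the 33 genes. SLC1A5, or ASCT2, a neutral amino acid exchanger that carries glutamine, followed at 117 ± 7.38 RPKM. SLC3A2, the heavy chain 4F2hc that brings SLC7A5 and SLC7A11 to the membrane, came next at 58.5 ± 2.41 RPKM. None of the WT libraries of these 3 genes overlapped with those of the next in order. SLC38A2 (38.8 ± 4.28 RPKM) and SLC43A1 (36.1 ± 0.654 RPKM) did overlap, as did SLC1A4, SLC38A10, SLC7A1 and SLC38A5, which lay between 20.3 and 22.2 RPKM on average. SLC6A14 (4.74 ± 0.348 RPKM) and SLC7A11 (3.19 ± 0.357 RPKM) stood in the lower part of the order, and SLC7A7 was the lowest of the 28 at 0.161 ± 0.0517 RPKM. The summed RPKM of the 33 genes was 686 ± 26.9 in WT, 602 ± 7.91 in shTST and 636 ± 17.2 in overTST. The ranges of the 3 groups did not overlap, with 664 to 724 in WT, 591 to 608 in shTST and 611 to 647 in overTST. The sum rests mostly on the highest genes. SLC7A5 was at 227 RPKM on average in shTST and 240 in overTST, and SLC1A5 at 89.8 and 105.

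**Figure D1:**
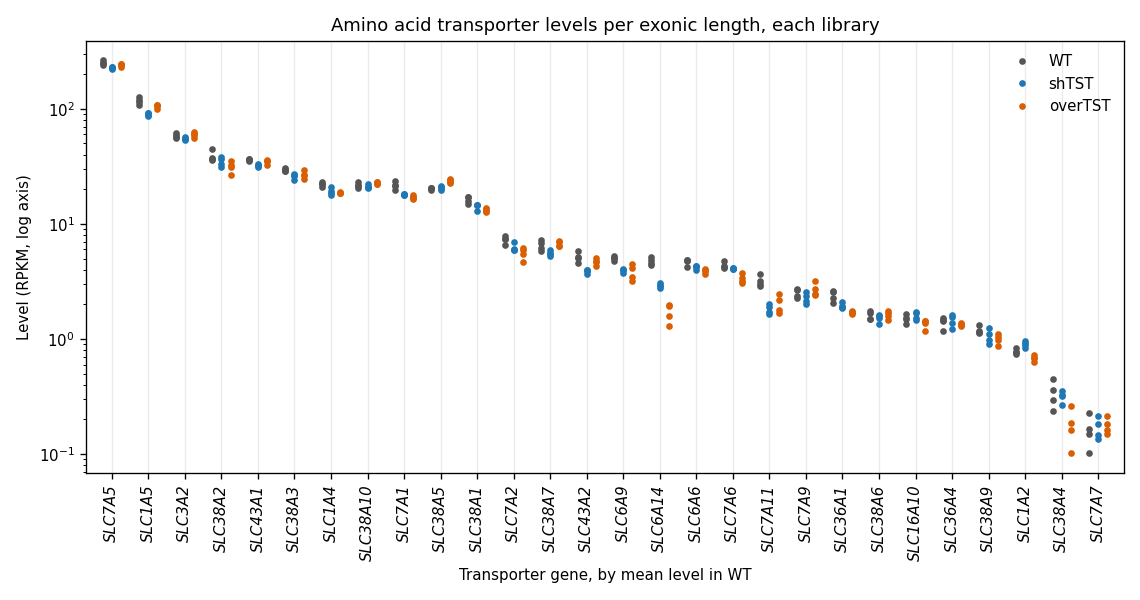
Level of each of the 28 tested transporters in RPKM (log axis) for every library, with genes ordered by their mean in WT (gray points), beside shTST (blue) and overTST (orange). SLC7A5 lies highest, at a WT mean of 251 RPKM, and SLC7A7 lowest, at 0.161 RPKM; the 3 groups of SLC6A14 lie apart from each other.

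Silencing of TST went with lower levels of 14 of the 28 carriers and with higher levels of 0. Lower were SLC7A11, SLC6A14, SLC43A2, SLC1A5, SLC6A9, SLC36A1, SLC7A1, SLC7A2, SLC38A7, SLC1A4, SLC38A1, SLC38A3, SLC43A1 and SLC7A5, with log2 fold changes from −0.81 to −0.14. Of all 14584 genes tested, 9.4% were lower and 6.69% higher at the same threshold, an adjusted p of 0.05 or less from edgeR's quasi-likelihood test. DESeq2 and limma-voom also gave 0 higher carriers, and 1 (SLC1A2) was higher at an unadjusted p under 0.05. The median log2 fold change was −0.17 over the 28 carriers and 0.0040 over all genes. The carriers also had a higher level, with a median log2 CPM of 5.32 against 4.14 over all genes. The shares above therefore do not compare genes of equal level, and the part of level in them was not tested. In 11 of the 28 the shTST libraries all lay below the WT libraries, and in 0 all above, which held for 10.8% and 8.37% of all genes tested.

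Overexpression went with lower levels of 14 of the 28 carriers and a higher level of 1, SLC38A5. Lower were SLC6A14, SLC38A4, SLC7A11, SLC36A1, SLC6A9, SLC7A2, SLC7A6, SLC7A1, SLC38A2, SLC38A1, SLC6A6, SLC1A4, SLC38A9 and SLC1A5, with log2 fold changes from −1.48 to −0.15. Of all 14421 genes tested, 18.2% were lower and 15.7% higher. The median log2 fold change was −0.18 over the carriers and 0.0019 over all genes. The median log2 CPM was 5.32 over the carriers and 4.11 over all genes. Every overTST library lay below every WT library for 14 carriers and above for 1, against 16.2% and 14.2% of all genes. These 2 comparisons share their 4 WT libraries, so a WT library that departs from the others moves both, and each gene is therefore given in all 3 groups below.

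**Figure D2:**
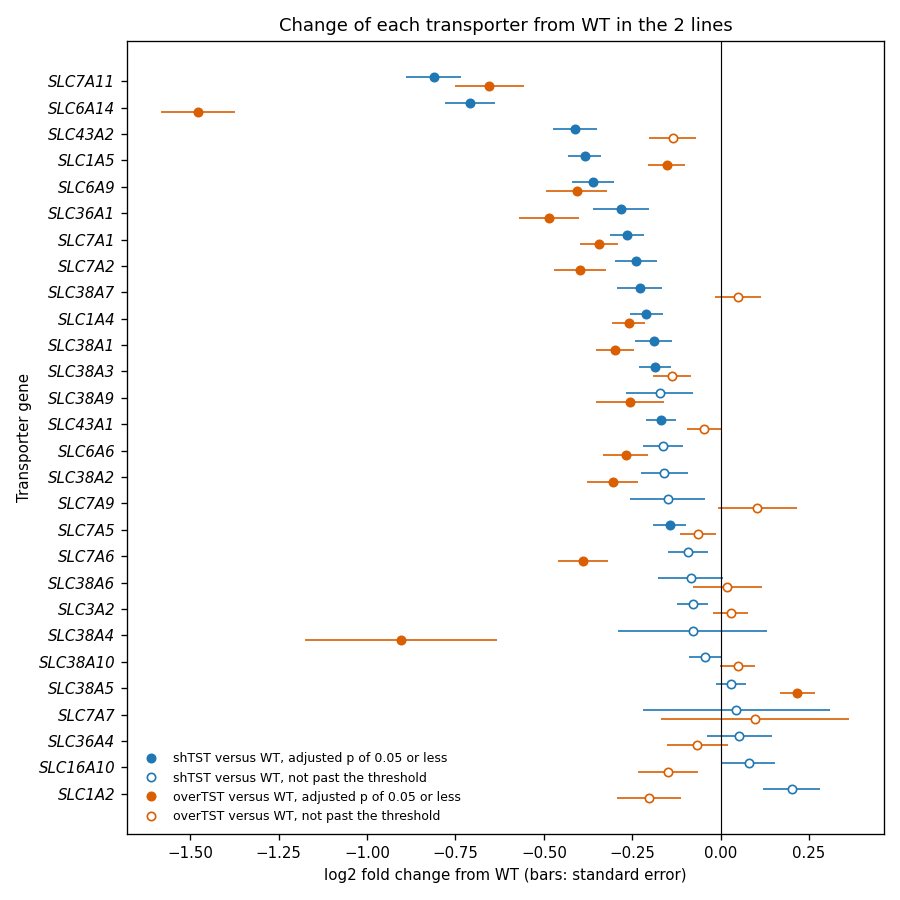
Log2 fold change from WT of each of the 28 transporters with shTST (blue) and overTST (orange); bars are standard errors, and filled points have an adjusted p of 0.05 or less. SLC6A14 (−0.71 and −1.48 on the log2 scale), SLC7A11 (−0.81 and −0.65) and SLC38A4 with overTST (−0.90) lie farthest left, and SLC38A5 with overTST (0.22) is the only filled point right of 0.

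Among the light chains, which carry the substrate in the heteromeric transporters, the cystine carrier SLC7A11 (ENSG00000151012, chr4:138164097-138242349 on the minus strand of GRCh38) was lower in both lines. It was at 30.5, 35.6, 27.8 and 29.0 CPM in WT, at 19.4, 18.5, 15.9 and 16.7 CPM in shTST and at 17.3, 16.1, 23.9 and 21.0 CPM in overTST. Every library of either line lay below every WT library, and the lines overlapped with each other. The log2 fold change was −0.81 with shTST (standard error 0.078, edgeR adjusted p = 7.78e-07), a level 43.0% lower, and −0.65 with overTST (standard error 0.097, adjusted p = 1.74e-05). Both calls held in all 18 alternative analyses of each comparison. Of the exonic bases of SLC7A11, 8.97% are shared with the antisense gene SLC7A11-AS1, and whether counting used strand is not given in the sources used here, so reads of these genes cannot be told apart in that stretch.

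The heavy chain SLC3A2, which SLC7A11 needs to reach the surface, was at 295, 318, 308 and 291 CPM in WT, 278, 283, 296 and 289 CPM in shTST and 289.9, 306, 325 and 315 CPM in overTST. The groups overlapped. Its log2 fold changes were −0.079 with shTST (95% interval −0.16 to 0.0041) and 0.028 with overTST (−0.068 to 0.12), neither past the threshold. Per 100 RPKM of SLC3A2, SLC7A11 was at 5.44 ± 0.481 RPKM in WT, 3.30 ± 0.388 in shTST and 3.39 ± 0.482 in overTST (SD, n = 4 each). No library of either line reached the lowest WT ratio of 4.85. SLC7A5, the most expressed partner of SLC3A2, was at 1196, 1254, 1139 and 1178 CPM in WT, 1045, 1097, 1105 and 1067 CPM in shTST and 1087, 1169.5, 1148 and 1154 CPM in overTST. All shTST libraries lay below all WT libraries, and the gene's log2 fold change was −0.14 with a standard error of 0.046 (edgeR adjusted p = 0.0364). This call was lost with upper-quartile normalization (adjusted p = 0.0852) and without any 1 of WT replicates 1, 2 and 4 or shTST replicates 1, 2 and 4 (adjusted p up to 0.136, log2 fold change −0.16 to −0.12). With overTST the log2 fold change of SLC7A5 was −0.065 (95% interval −0.16 to 0.035).

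SLC7A6, the y+LAT2 exchanger of arginine for glutamine, was at 31.6, 36.1, 32.2 and 32.4 CPM in WT, 30.6, 31.6, 30.5 and 31.7 CPM in shTST and 25.6, 28.2, 24.2 and 23.1 CPM in overTST. The overTST libraries lay below all others, and the log2 fold change from WT was −0.39 (standard error 0.07, edgeR adjusted p = 0.000137), and the shTST libraries overlapped with WT. Of the exonic bases of SLC7A6, 55.6% lie over genes on the opposite strand, SLC7A6OS among them, so its counts are uncertain in the same way. SLC7A9, a cystine and cationic amino acid exchanger, and SLC7A7, which releases cationic amino acids, passed the threshold in neither comparison. SLC7A9 was at 5.19 to 8.23 CPM over all libraries and SLC7A7 at 17 to 53 counts.

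Both cationic amino acid uniporters, the arginine and lysine carriers CAT1 and CAT2, were lower in both lines. SLC7A1 (CAT1) was at 168, 181, 151 and 166 CPM in WT, 139.7, 137, 139.7 and 138 CPM in shTST and 137, 133, 126 and 129 CPM in overTST. Every library of either line lay below the lowest WT library. Its log2 fold change was −0.26 with shTST (standard error 0.048, edgeR adjusted p = 0.000723) and −0.34 with overTST (standard error 0.054, adjusted p = 3.17e-05). SLC7A2 (CAT2) was at 58.3, 58.6, 51.8 and 61.9 CPM in WT, 54.5, 47.4, 46.6 and 46.9 CPM in shTST and 48.6, 36.7, 46.5 and 43.0 CPM in overTST. Replicate 1 of shTST lay above the lowest WT library, and all overTST libraries lay below WT. The log2 fold change of SLC7A2 was −0.24 with shTST (standard error 0.06, adjusted p = 0.00858) and −0.40 with overTST (standard error 0.073, adjusted p = 0.000173).

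The neutral exchangers of the SLC1 family were also lower in both lines. SLC1A5 (ASCT2) was at 362, 419, 379.9 and 401 CPM in WT, 291, 293, 307 and 305 CPM in shTST and 330.3, 354, 359 and 361 CPM in overTST. The 3 groups did not overlap, with shTST lowest. The log2 fold change was −0.38 with shTST (standard error 0.047, edgeR adjusted p = 1.77e-05) and −0.15 with overTST (standard error 0.051, adjusted p = 0.0237). The overTST call was lost with upper-quartile normalization (adjusted p = 0.0654) and when WT replicate 2 or 4 or overTST replicate 1 was left out (adjusted p up to 0.0825, log2 fold change −0.19 to −0.12). SLC1A4 (ASCT1), the alanine, serine and cysteine exchanger, was at 154, 159.99, 146 and 155 CPM in WT, 129, 145, 125 and 134 CPM in shTST and 131, 128, 127 and 128 CPM in overTST. No library of either line reached the lowest WT library, and the log2 fold changes were −0.21 (adjusted p = 0.00455) and −0.26 (adjusted p = 0.000155).

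The other SLC1 gene with enough counts, SLC1A2 (EAAT2), takes up glutamate. It was at 9.13, 10.4, 9.44 and 9.45 CPM in WT, 11.9, 10.2, 11.3 and 10.9 CPM in shTST and 8.43, 7.75, 8.37 and 8.91 CPM in overTST. Its log2 fold changes from WT were 0.20 with shTST (edgeR adjusted p = 0.0936) and −0.20 with overTST (adjusted p = 0.0908), neither past the threshold. After the length correction the shTST value was 0.23 (adjusted p = 0.0464) and the overTST value −0.024 (adjusted p = 0.869).

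The sodium and chloride coupled carriers of the SLC6 family held the largest change. SLC6A14 (ENSG00000268104, chrX:116436622-116461458 on the plus strand) is a broad carrier of neutral and cationic amino acids that also takes glycine. It was at 19.9, 23.4, 21.9 and 20.5 CPM in WT, 13.1, 13.3, 12.4 and 13.7 CPM in shTST and 8.96, 5.80, 8.80 and 7.09 CPM in overTST. The 3 groups were separate, with WT highest and overTST lowest. The log2 fold change was −0.71 with shTST (standard error 0.07, edgeR adjusted p = 1.13e-06), a level 38.8% lower, and −1.48 with overTST (standard error 0.10, adjusted p = 1.33e-09), a level 64.1% lower. Both calls held in all 18 alternatives, with adjusted p up to 1.65e-05 for shTST and 3.31e-08 for overTST. These values rest on 646 to 1066 counts per library in WT, 365 to 429 in shTST and 137 to 240 in overTST.

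SLC6A9 (GlyT1), the glycine uptake carrier, was at 26.0, 26.3, 24.5 and 27.1 CPM in WT, 20.3, 19.3, 20.3 and 21.0 CPM in shTST and 16.3, 17.7, 23.0 and 21.5 CPM in overTST. All libraries of both lines lay below WT, and the overTST libraries were spread more widely than the shTST libraries. The log2 fold changes were −0.36 (standard error 0.06, edgeR adjusted p = 0.000361) and −0.41 (standard error 0.086, adjusted p = 0.000758). SLC6A6, the taurine carrier, was at 40.0, 39.3, 35.0 and 40.2 CPM in WT, 35.2, 35.2, 32.9 and 34.8 CPM in shTST and 32.0, 32.5, 33.4 and 30.4 CPM in overTST. Its log2 fold change was −0.16 with shTST (adjusted p = 0.0522), which did not pass the threshold but did in 4 of 18 alternatives (adjusted p down to 0.0152), and −0.27 with overTST (adjusted p = 0.00173), which after the length correction became −0.15 (adjusted p = 0.0528).

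Of the 9 SLC38 genes, 3 were lower with shTST, and with overTST 4 were lower and 1 was higher, against 9.4% of all genes lower with shTST, and 18.2% lower and 15.7% higher with overTST. The system A carriers, which take up small neutral amino acids with sodium, are SLC38A1, SLC38A2 and SLC38A4, neighbours on chromosome 12. SLC38A1 and SLC38A2 lie 88.2 kb apart with 0 genes between them. SLC38A1 was at 158, 173, 149 and 170.4 CPM in WT, 147, 147, 129.6 and 147 CPM in shTST and 139, 129, 134 and 126 CPM in overTST. Every library of either line lay below WT, with log2 fold changes of −0.19 (edgeR adjusted p = 0.0156) and −0.30 (adjusted p = 0.000137). After the length correction they were −0.17 (adjusted p = 0.0145) and −0.15 (adjusted p = 0.0177). The shTST call was lost without WT replicate 4 or shTST replicate 3 (adjusted p up to 0.0689, log2 fold change −0.23 to −0.14).

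SLC38A2, the system A carrier that cells induce when amino acids run short, was at 238, 298, 241 and 248 CPM in WT, 252, 243, 205 and 219 CPM in shTST and 213, 177, 232 and 208 CPM in overTST. The overTST libraries lay below WT (log2 fold change −0.31, edgeR adjusted p = 0.00174), and the shTST libraries overlapped with WT (log2 fold change −0.16, adjusted p = 0.104, and past the threshold in 3 of 18 alternatives with adjusted p down to 0.00584). SLC38A4, the system A carrier of the liver, was scarce, with 61, 56, 29 and 49 counts in WT, 31, 44, 46 and 41 in shTST and 29, 10, 17 and 17 in overTST. In CPM it was at 0.985 to 1.88 in WT, 1.11 to 1.47 in shTST and 0.424 to 1.0823 in overTST. The log2 fold change with overTST was −0.90 with a wide standard error of 0.27 (adjusted p = 0.0121), and this call was lost without WT replicate 1 or overTST replicate 2 (adjusted p up to 0.0594, log2 fold change −1.17 to −0.72). With shTST it was −0.078 (95% interval −0.49 to 0.33).

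The system N carriers, which move glutamine, histidine and asparagine, differed from each other. SLC38A3 (SNAT3) was at 122, 115, 115 and 118 CPM in WT, 96.0, 104, 107 and 106 CPM in shTST and 97.9, 106, 106 and 117 CPM in overTST. The shTST libraries lay below WT (log2 fold change −0.19, edgeR adjusted p = 0.00681), and 1 overTST library, replicate 4, lay within the WT range (log2 fold change −0.14, adjusted p = 0.0537). This value passed the threshold in 7 of 18 alternatives, with adjusted p down to 0.0135. SLC38A5 (SNAT5), which also carries glycine, was at 78.7, 82.0, 81.7 and 82.7 CPM in WT, 79.8, 83.3, 85.6 and 82.8 CPM in shTST and 90.2, 99.4, 92.2 and 96.0 CPM in overTST. It was the only carrier higher with overTST, where all libraries lay above WT (log2 fold change 0.22, standard error 0.05, adjusted p = 0.00151), and a 2nd, SLC38A10, passed the threshold upward after the length correction (0.15, adjusted p = 0.0245). With shTST the log2 fold change of SLC38A5 was 0.029 (95% interval −0.056 to 0.11).

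The lysosomal members of the family were SLC38A7, which exports glutamine and asparagine from lysosomes, and SLC38A9, the lysosomal arginine sensor of the mTORC1 pathway. SLC38A7 was at 43.3, 50.2, 40.4 and 47.6 CPM in WT, 36.8, 38.8, 38.3 and 41.3 CPM in shTST and 45.0, 48.6, 44.9 and 49.7 CPM in overTST. Its log2 fold change was −0.23 with shTST (edgeR adjusted p = 0.0154), where 1 library overlapped with WT, and this p rose above the threshold when WT replicate 2 or 4 or shTST replicate 1 was left out (adjusted p up to 0.0698, log2 fold change −0.28 to −0.18). With overTST the log2 fold change was 0.049 (95% interval −0.08 to 0.18). SLC38A9 was at 9.93, 10.1, 10.3 and 11.7 CPM in WT, 8.59, 10.9, 8.0002 and 9.72 CPM in shTST and 9.74, 7.62, 8.61 and 9.09 CPM in overTST. Its log2 fold change with overTST was −0.26 (adjusted p = 0.0418), and it was −0.13 (adjusted p = 0.32) after the length correction and −0.23 (adjusted p = 0.0672) with upper-quartile normalization. The SLC38A9 call was also lost without WT replicate 3 or 4 or overTST replicate 2, 3 or 4 (adjusted p up to 0.16, log2 fold change −0.31 to −0.19). SLC38A6 (6.99 to 9.04 CPM over all libraries) and SLC38A10 (158 to 179.8 CPM) passed the threshold in neither comparison.

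The proton-coupled carrier SLC36A1 (PAT1), which moves glycine, alanine and proline, was at 15.9, 18.3, 14.3 and 17.7 CPM in WT, 13.1, 13.6, 14.6 and 13.3 CPM in shTST and 12.3, 11.9, 11.8 and 11.4 CPM in overTST. All overTST libraries lay below all others, and shTST replicate 3 lay above the lowest WT library. Against WT, the log2 fold change was −0.28 with shTST (standard error 0.079, edgeR adjusted p = 0.0178) and −0.48 with overTST (standard error 0.085, adjusted p = 0.000112). The shTST call was lost when WT replicate 2 or 4 or shTST replicate 1 or 4 was left out (adjusted p up to 0.0669, log2 fold change −0.34 to −0.23). SLC36A4 (PAT4), a proline and tryptophan carrier, was at 11.4 to 15.8 CPM over all libraries and passed the threshold in neither comparison.

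The facilitated carriers let large or aromatic neutral amino acids leave the cell or enter it along their gradient. SLC43A2 (LAT4) was at 48.6, 61.8, 53.9 and 54.6 CPM in WT, 38.9, 42.0, 41.2 and 42.6 CPM in shTST and 45.8, 53.2, 50.7 and 49.8 CPM in overTST. All shTST libraries lay below all others, and the log2 fold change from WT was −0.41 (standard error 0.062, edgeR adjusted p = 0.000127), and overTST overlapped with WT (−0.14, adjusted p = 0.115). SLC43A1 (LAT3) was at 124, 129, 129 and 127 CPM in WT, 109.6, 112, 115 and 117 CPM in shTST and 116, 125, 125 and 128 CPM in overTST. It was lower with shTST (log2 fold change −0.17, standard error 0.041, adjusted p = 0.00727), and with overTST its log2 fold change was −0.047 (95% interval −0.14 to 0.047). SLC16A10 (TAT1), the carrier of aromatic amino acids, was at 15.3 to 18.6 CPM in WT, 16.4 to 19.3 CPM in shTST and 13.1 to 16.2 CPM in overTST, and passed the threshold in neither comparison with WT.

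**Figure D3:**
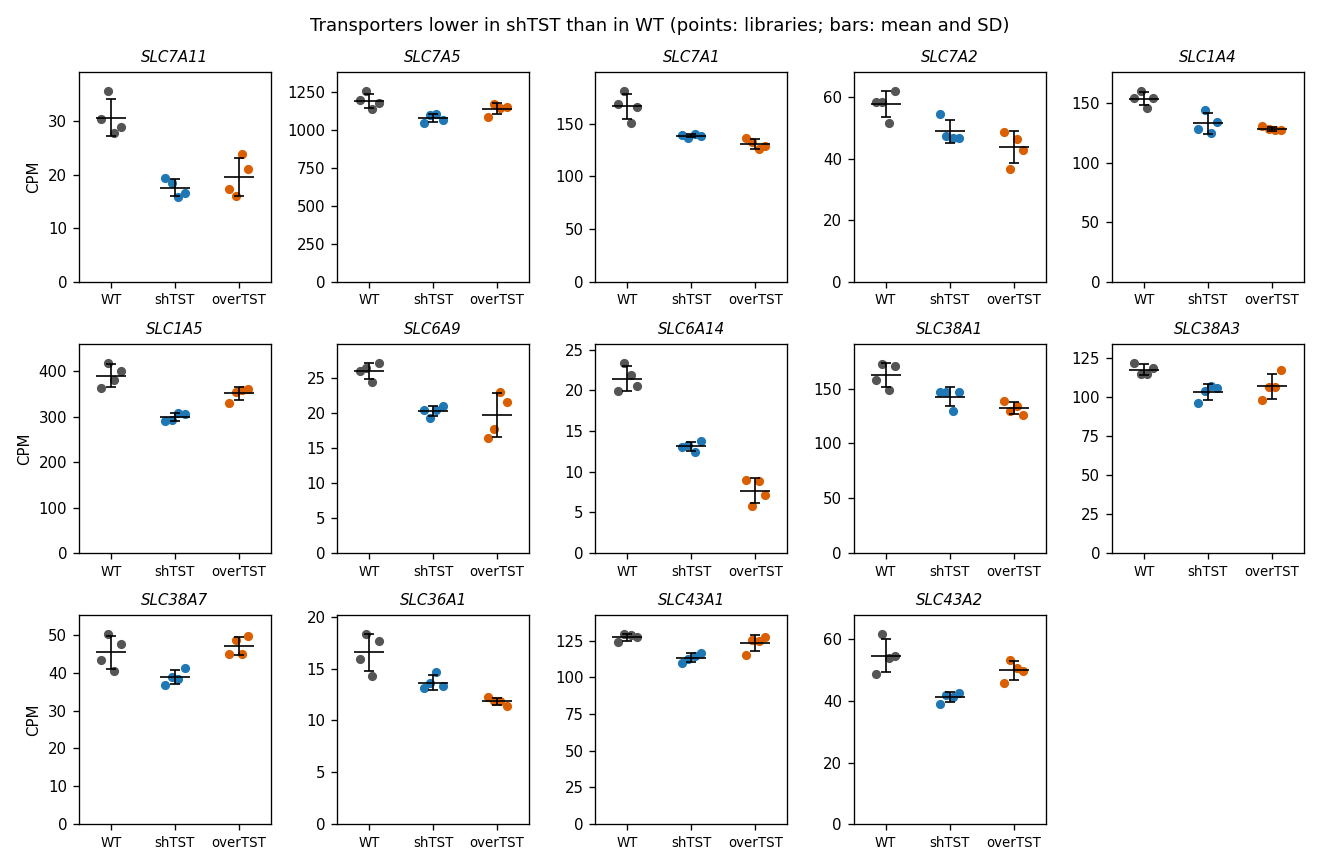
CPM of the 14 transporters lower in shTST than in WT, each axis starting at 0; points are libraries and bars the mean and SD of 4. The shTST points of SLC7A11, SLC6A14 and SLC1A5 lie clear of the WT points, and those of SLC7A2, SLC38A7 and SLC36A1 overlap with them.

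Tested directly against each other in 1 fit of all 12 libraries, shTST and overTST differed in 10 of the 28 carriers. SLC1A5, SLC38A5, SLC38A7, SLC43A1 and SLC43A2 were lower in shTST (5 carriers, against 16.1% of all 14883 genes tested), and SLC7A6, SLC1A2, SLC6A14, SLC38A4 and SLC16A10 were higher in shTST (5 carriers, against 16.9%). The libraries of the lines did not overlap, with shTST lower, for 4 carriers (14.7% of all genes) and, with shTST higher, for 6 (14.5%). These shares are near those of all genes. SLC6A14 differed by 0.77 on the log2 scale (standard error 0.10, edgeR adjusted p = 5.26e-06), and SLC1A2 by 0.40 (standard error 0.085, adjusted p = 0.000676). After the length correction the SLC1A2 difference was 0.25 (adjusted p = 0.0249). SLC38A4 differed by 0.82 (standard error 0.26, adjusted p = 0.0178), a call lost without overTST replicate 2 (adjusted p = 0.0776). SLC7A6 differed by 0.30 (adjusted p = 0.000894) and SLC16A10 by 0.23 (adjusted p = 0.0333), the latter being 0.086 (adjusted p = 0.482) after the length correction. The SLC16A10 call was also lost without shTST replicate 1 or 2 or overTST replicate 3 or 4 (adjusted p up to 0.158, log2 difference 0.16 to 0.27).

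The carriers lower in shTST than in overTST differed by less. SLC38A7 and SLC43A2 each differed by −0.28 on the log2 scale (edgeR adjusted p = 0.00151 and 0.00166), SLC1A5 by −0.23 (adjusted p = 0.000561) and SLC38A5 by −0.19 (adjusted p = 0.00245). SLC43A1 differed by −0.12 (adjusted p = 0.0357), a call lost after the length correction (−0.088, adjusted p = 0.123), with no filter on low counts (adjusted p = 0.236), and without shTST replicate 1, 2 or 3 or overTST replicate 2, 3 or 4 (adjusted p up to 0.109, log2 difference −0.15 to −0.10). The difference between the lines in SLC7A11 was −0.16 (95% interval −0.35 to 0.041), and after the length correction −0.28 (adjusted p = 0.0314). The median difference over the 28 carriers was 0.048 on the log2 scale, and −0.023 after the length correction.

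**Figure D4:**
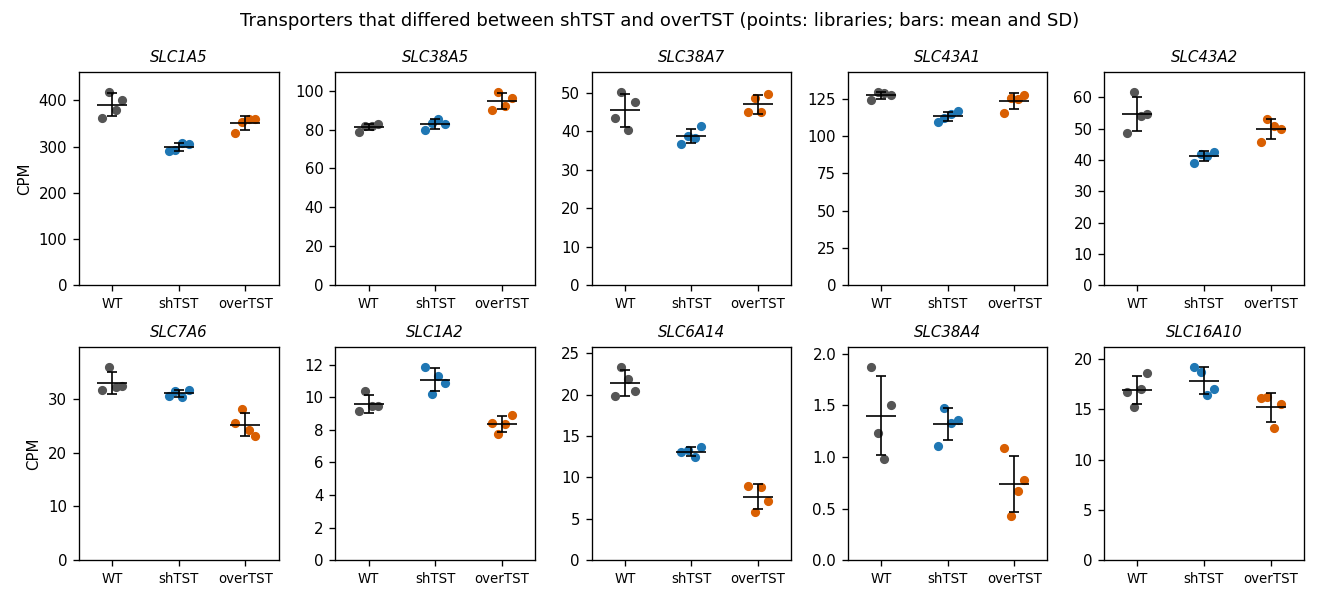
CPM of the 10 transporters that differed between shTST and overTST, with WT for reference and each axis starting at 0; points are libraries and bars the mean and SD of 4. The upper row holds the 5 carriers lower in shTST than in overTST, the lower row the 5 carriers higher in shTST, SLC6A14 among them at 13.1 against 7.66 CPM on average.

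Fold changes moved with exonic length over all genes, and these carriers are longer than most genes. Their median exonic length was 6960 bases (28 genes), against 4469 bases for all genes tested with shTST. Spearman's rho between length and log2 fold change, across genes, was −0.09 with shTST, −0.40 with overTST and 0.36 between the lines. Genes are not independent replicates, and these values are descriptions. Among genes within the length range of the carriers, 2597 to 12331 bases, 10.7% were lower and 7.11% higher with shTST, and 21.4% were lower and 12.6% higher with overTST. After a lowess trend with length was removed in each library, 14 carriers were lower and 1 was higher with shTST, and 13 were lower and 2 higher with overTST, against 9.88% and 8.05% of all genes with shTST and 14.3% and 14.2% with overTST. The median of the carriers was then −0.16 and −0.14. Between the lines, 7 carriers were then lower and 4 higher in shTST, against 14.9% and 13% of all genes. Apart from this correction, the part of length, total counts or the mitochondrial share in the lower levels was not tested. SLC7A11 with overTST moved from −0.65 to −0.51 (edgeR adjusted p = 0.000221), and SLC6A14 from −1.48 to −1.46.

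**Figure D5:**
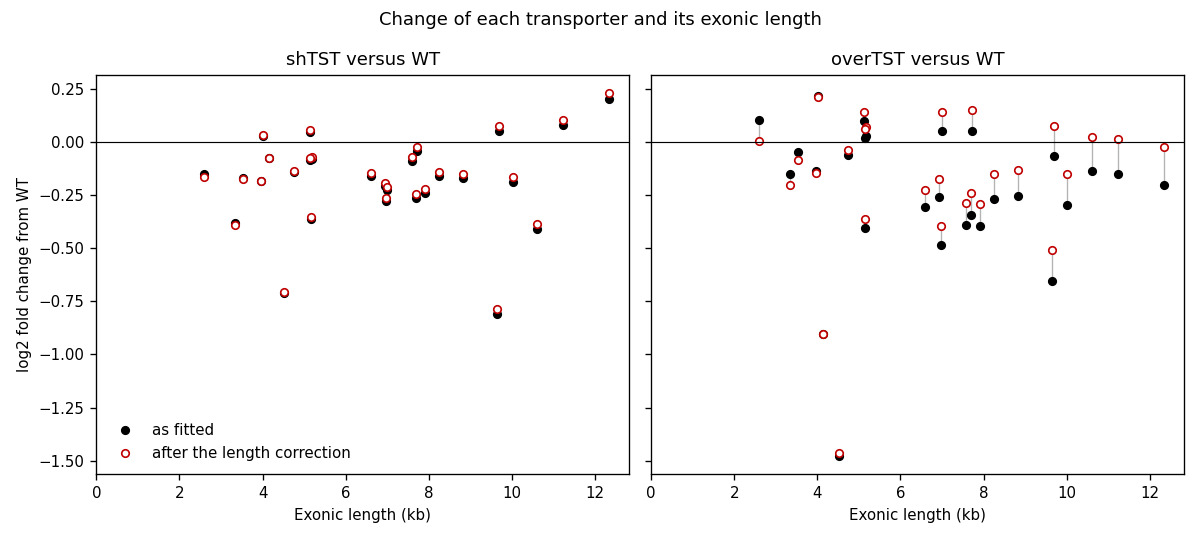
Log2 fold change of the 28 transporters against exonic length in kilobases, for shTST (left) and overTST (right), as fitted (black) and after removal of the length trend (red circles); gray lines join the values of 1 gene. With shTST the values barely move, and with overTST the longer genes move up, SLC7A11 from −0.65 to −0.51.

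Other genes of the same pathways moved in varied ways. Of 26 tested genes of the ATF4 response other than the carriers, 10 were lower and 1 higher with shTST, against 9.4% and 6.69% of all genes. With overTST 6 were lower and 8 higher, against 18.2% and 15.7%. With shTST, ASNS (asparagine synthetase) had a log2 fold change of −0.71 (edgeR adjusted p = 2.56e-07), TRIB3 (a pseudokinase induced by stress) −0.33 (adjusted p = 6.22e-05) and NUPR1 (a stress-induced nuclear protein) 0.31 (adjusted p = 0.00169). With overTST, MTHFD2, the mitochondrial folate enzyme, was lower (−0.38, adjusted p = 2.3e-05), as was the lipoprotein receptor VLDLR (−0.74, adjusted p = 1.75e-05), while DDIT3, the stress transcription factor CHOP, was higher (1.01, adjusted p = 1.74e-05), as was NUPR1 (0.69, adjusted p = 9.85e-07). Between the lines, 15 of the 26 were lower and 2 higher in shTST, against 16.1% and 16.9% of all genes. ATF4 itself passed the threshold in neither comparison with WT (−0.076, edgeR adjusted p = 0.381 with shTST, and 0.14, adjusted p = 0.0961 with overTST). It was lower in shTST than in overTST (−0.22, adjusted p = 0.0158).

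Of 16 genes of glutathione and cystine metabolism, 5 were lower and 1 higher with shTST, and 5 were lower and 4 higher with overTST, beside the same shares of all genes (9.4% and 6.69%, then 18.2% and 15.7%). SRXN1, or sulfiredoxin, an NRF2 target, was lower with shTST (log2 fold change −0.45, edgeR adjusted p = 0.00275) and with overTST (−0.48, adjusted p = 0.00054). KEAP1, which marks NRF2 for degradation, was lower with shTST (−0.20, adjusted p = 0.00566), and HMOX1, heme oxygenase, was higher (0.25, adjusted p = 0.00334). With overTST, NFE2L2, the gene of NRF2, was lower (−0.21, adjusted p = 0.00372), and GPX4, which reduces lipid peroxides, was higher (0.24, adjusted p = 0.00708; 0.097 and adjusted p = 0.211 after the length correction).

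Of the genes of lysosomal amino acid sensing and export, 5 of 24 were lower and 2 higher with shTST, and 3 of 25 were lower and 6 higher with overTST. Of all genes, 9.4% were lower and 6.69% higher with shTST, and 18.2% and 15.7% with overTST. With shTST the lysosomal cystine exporter CTNS was lower (log2 fold change −0.29, edgeR adjusted p = 0.00219), as was the mTORC1 subunit RPTOR (−0.25, adjusted p = 0.00219), and SESN1, a sestrin, was higher (0.33, adjusted p = 0.00593). LAMTOR4, a subunit of the Ragulator complex on lysosomes, was higher with shTST (0.24, adjusted p = 0.00828) and overTST (0.34, adjusted p = 0.000485). With overTST the kinase gene MTOR was lower (−0.34, adjusted p = 3.72e-05) and LAMTOR1 higher (0.31, adjusted p = 7.06e-05). RPTOR was also lower (−0.23, adjusted p = 0.0019), but not after the length correction (−0.094, adjusted p = 0.188). Of 19 further amino acid carriers, such as the brain and kidney transporters of the SLC6 family, 3 had enough counts to be tested in each comparison with WT, and 0 passed edgeR's threshold, with 1 at an unadjusted p under 0.05 for shTST and 2 for overTST.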

How the data were processed

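Total RNA of 12 HepG2 libraries was sequenced, 4 each of WT, shTST and overTST. Per the submitters' processing notes, reads were trimmed with Trimmomatic 0.36, aligned to GRCh38 with STAR 2.5.2b and counted with featureCounts of Subread 1.5.2. Strand use is not given in the sources used here. The authors deposited whole-number counts per Ensembl gene, with exonic length and without normalization. Groups came from the sample labels, and 56410 of the 57500 identifiers had a symbol.

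The fits for shTST against WT and overTST against WT used 8 libraries each, that for shTST against overTST all 12, with edgeR 4.0.16 (R 4.3.3): filterByExpr defaults, TMM scaling, the quasi-likelihood test, and Benjamini-Hochberg adjustment over all genes tested at 0.05. A standard error is the absolute log2 fold change over the root of its F statistic, and 95% intervals span 1.96 standard errors on either side. CPM and RPKM used TMM factors of all 12 libraries. The depth of 22911380 to 45120508 counts sets the counting error. The 18 pairs of libraries within groups were checked for copies (chi-square per gene 3.68 to 38.3), and none was one. Scripts were tested on simulated data.

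Alternatives were DESeq2 1.42.0, limma-voom (limma 3.58.1), RLE and upper-quartile scaling, no filter, a minimum above 1 CPM in 4 libraries or more, a lowess length correction (span 0.3), the replicate number as a block, both together, other libraries in the fit, and leaving out each library. Figures used matplotlib 3.10.9 (Python 3.11.15). The carriers and gene lists were chosen with earlier results of these data known. Named genes were TST, ATF4, all 33 carriers and, of each other list, up to 2 higher and 2 lower genes with the smallest p in each comparison with WT. Some results these rules would give are not reported here.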

Additional observations from a re-analysis of the deposited data

Results flagged for a closer look

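Among 84 groups of 4 libraries examined, 28 carriers in 3 groups each, 5 held a library far from the other 3. The rule used marks about 1 in 20 groups by chance when groups are independent. The carriers were read from the same libraries, so this rate cannot judge the count of 5. In WT replicate 2, SLC7A6 was at 36.1 CPM against 31.6 to 32.4 CPM in the other WT libraries, and SLC38A2 at 298 CPM against 238 to 248 CPM. In WT replicate 3, SLC6A6 was at 35.0 CPM against 39.3 to 40.2 CPM. In shTST replicate 1, SLC7A2 was at 54.5 CPM against 46.6 to 47.4 CPM. In shTST replicate 3, SLC38A1 was at 129.6 CPM against 147 CPM in the others. Summed over all carriers, WT replicate 2 was also the highest WT library, at 724 RPKM against 664 to 686 RPKM in the other WT libraries. Whether any library departed from its group across the carriers as a set was not tested.

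The changes from WT differed between the lines for 10 carriers, by the direct test of shTST against overTST in 1 fit (edgeR's quasi-likelihood test). Of these, 5 were lower in shTST and 5 higher, near the 16.1% and 16.9% of all genes. On the log2 scale shTST was higher by 0.82 for SLC38A4, 0.77 for SLC6A14, 0.40 for SLC1A2, 0.30 for SLC7A6 and 0.23 for SLC16A10. The difference was −0.28 for SLC38A7, −0.28 for SLC43A2, −0.23 for SLC1A5, −0.19 for SLC38A5 and −0.12 for SLC43A1. The SLC38A4, SLC16A10 and SLC43A1 calls were lost when single libraries were left out, and those of SLC16A10 and SLC43A1 also after the length correction.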

How the results depend on the processing

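No called change of a carrier turned its direction in any alternative run. The count of carriers higher with shTST went from 0 to 1 with the length correction (SLC1A2), and that with overTST from 1 to 2 with the length correction and to 3 with the replicate block and length correction together (SLC38A5, SLC38A7 and SLC38A10). With 1 library left out, the carriers lower with shTST numbered 10 to 15 and those lower with overTST 12 to 14, and between the lines 4 to 7 were lower and 4 to 7 higher in shTST. Without WT replicate 4, 10 were lower with shTST. The shares of all genes called are not given here for fits without a library, or for the block and length correction together. These counts therefore cannot be set against all genes.

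The replicate numbers did not clearly pair the libraries. Deviations of libraries with the same number correlated at −0.053 to 0.08 over 12 pairs, and those with different numbers at −0.11 to 0.078. In both other groups at once, 2 of 12 libraries correlated best with their own number. With the number as a replicate block, 16 carriers were lower with shTST (SLC6A6 and SLC38A2 added), 15 with overTST (SLC38A3 added), and 6 lower (SLC3A2 added) and 5 higher in shTST between the lines, against 11.9%, 19.1%, 17.2% and 18% of all genes in these fits.

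Values that were not called and turned their sign were as follows. With overTST, SLC38A6 was −0.0039 with no filter. With the length correction, alone and with the block, SLC36A4 was 0.075 and 0.077, SLC16A10 0.014 and 0.017, and SLC43A2 0.023 and 0.026. Between the lines, alone and with the block, SLC7A1 was −0.0061 and −0.0050, SLC1A4 −0.024 and −0.025, SLC38A1 −0.016 and −0.018, SLC38A9 −0.023 and −0.026, and SLC36A4 −0.0038 and −0.0022, and the median −0.023 and −0.026. The causes were not tested. With 1 library left out, the sign turned for SLC7A7 (−0.11 to 0.29), SLC36A4 (−0.029 to 0.13) and SLC38A4 (−0.20 to 0.088) with shTST, for SLC7A7 (−0.059 to 0.34), SLC38A6 (−0.019 to 0.064) and SLC38A7 (−0.0037 to 0.10) with overTST, and for SLC7A7 (−0.18 to 0.043), SLC6A9 (−0.036 to 0.13) and SLC38A9 (−0.0025 to 0.15) between the lines.

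Counts of 10 to 61 per library limit SLC38A4 and of 17 to 53 SLC7A7.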
